A study of Mus musculus with 10 samples.

Results

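The 10 genes described here are widely used markers of astrocytes: Gfap, Aqp4, S100b, Apoe, Agt, Slc1a2, Slc1a3, Gja1, Glul and Fabp7. They were taken by gene symbol from 17919 RefSeq genes, and all 10 were found in each of the 6 libraries used. The cultures were neural stem cells taken at embryonic day 10 from the ventral midbrain of mice of the ICR strain. They were transduced with lentivirus for Lin28a, an RNA-binding protein of early development, or with a mock control virus, and were grown in vitro with a passage every 4 days. RNA-seq covered 4 libraries, from control and Lin28a cultures at passage 1 (P1) and at passage 3 (P3). Polysome-seq, the sequencing of RNA recovered from a sucrose gradient that separates ribosome-bound RNA by weight, covered 2 libraries, from both cultures at P3. All groups carried a virus, so no untransduced culture was compared, and another 4 libraries of small RNA were not used here.

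Astrocytes are the glia that take up glutamate and potassium around synapses, supply neurons with metabolites and lipids, and line blood vessels with water-permeable endfeet. They arise from radial glia, the neural stem cells of the embryo, which make neurons first and glia later. Several of the genes above are therefore on in radial glia already, such as Slc1a3, Glul and Fabp7, whereas Gfap, Aqp4, S100b and Agt come on as astrocytes mature.

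Each group was a single library with no replicate, which leaves differences between libraries without a test, an error or a p-value. RNA-seq levels are in FPKM (fragments scaled to gene length and to library size) and polysome levels are read as RPKM (reads on the same scale), both per length. A difference is a log2 ratio of (level + 1) for genes that reach 1 in either library of the comparison, and it is called past 2-fold at 1 or more in size. Lin28a itself was at 0.128 and 0.0620 FPKM in P1 and P3 control, and at 478 and 104 FPKM in P1 and P3 of the Lin28a culture. In polysomes it was at its floor of 0.00204 RPKM in control and at 17.9 RPKM with Lin28a. These 6 values follow the labels. Sequencing depth is not known, but the steps between low values put P1 Lin28a at 1.15, P3 control at 1.01 and P3 Lin28a at 1.03 times the depth of P1 control, and the polysome Lin28a library at 1.04 times its control.

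The promoters of 4 of the genes are shown because their levels mark both ends of the set: Agt, Gfap and S100b were under 1 FPKM at P1 and far above it at P3, while Fabp7 was the highest of the set throughout. Each line is the 120 bases before the gene's start on its own strand, 5′ to 3′, from RefSeq on GRCm38.p6. The expression files name mm9, so these windows place the sequences and no measured value. The positions are chr8:124569707-124569826 (minus strand) for Agt, chr11:102897201-102897320 (minus) for Gfap, chr10:76253716-76253835 (plus) for S100b and chr10:57784803-57784922 (plus) for Fabp7. Capitals mark matches, on either strand, to 5 motifs that were chosen, like these 4 genes, after the data had been seen.
Agt: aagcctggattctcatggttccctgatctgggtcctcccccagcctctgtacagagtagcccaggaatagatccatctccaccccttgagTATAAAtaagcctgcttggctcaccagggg
Gfap: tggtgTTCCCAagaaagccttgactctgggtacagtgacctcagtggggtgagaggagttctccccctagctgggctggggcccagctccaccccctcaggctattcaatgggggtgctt
S100b: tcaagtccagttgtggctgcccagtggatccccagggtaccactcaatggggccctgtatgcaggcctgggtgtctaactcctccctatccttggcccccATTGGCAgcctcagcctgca
Fabp7: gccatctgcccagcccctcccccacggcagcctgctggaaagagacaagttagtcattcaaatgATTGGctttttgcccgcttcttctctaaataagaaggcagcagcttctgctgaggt

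The motifs were the TATA box (TATAAA), the STAT site (TTCNNNGAA), the core bound by the Notch factor RBPJ (TGGGAA), the half-site of the NFI factors (TTGGCA) and the CCAAT box (CCAAT), of which the last 2 can overlap, as they do in S100b. Matches were sought in the 250 bases before the start, in 11 windows of 9 of the genes, Apoe having 3 windows. The promoter of Aqp4 was left out of the search. Agt has a TATA box 30 bases before its start and a STAT site at 172. Gfap has 1 match, an RBPJ core at 115, and S100b has an NFI half-site at 19, CCAAT boxes at 20 and 202 and an RBPJ core at 234. Fabp7 has CCAAT boxes at 56 and 126 and an RBPJ core at 249. Over the 9 genes, counting a match in any window, 3 hold a TATA box, 2 a STAT site, 3 an RBPJ core, 2 an NFI half-site and 4 a CCAAT box. Among 32851 promoters of the same length the shares were 12.4%, 7.02%, 21.6%, 12.3% and 33.8%. Those shares are per window, whereas Apoe enters the TATA box and NFI counts through any of its 3 windows, so counts and shares are not on the same footing. A match is a description of letters and not a bound site.

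Gfap encodes the intermediate filament that defines mature and reactive astrocytes. It was at 0.743 FPKM in P1 control and 142 FPKM in P3 control, at 0.269 FPKM in P1 Lin28a and 25.0 FPKM in P3 Lin28a, and at 4.06 and 1.47 RPKM in the control and Lin28a polysomes. Both P1 libraries were near the bottom of the scale and P3 control stood far above P3 Lin28a, which held 17.6% of the control level. The log2 ratio of P3 to P1 was 6.36 in control and 4.36 in Lin28a. That of Lin28a to control was -2.46 in P3 RNA and -1.03 in polysomes, the most negative among the 10 genes in both.

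S100b encodes a calcium-binding protein of mature astrocytes, which oligodendrocyte precursors also make. Its RNA levels were 0.0519 and 22.2 FPKM in P1 and P3 control and 0.112 and 13.6 FPKM in P1 and P3 Lin28a. In polysomes it was at 0.793 RPKM in control and 0.231 RPKM with Lin28a. It was the lowest of the 10 genes in each of the 6 libraries, and under 1 in 4 of them. Its log2 ratio was 4.46 with passage in control, 3.71 with passage in Lin28a and -0.67 for Lin28a against control in P3 RNA.

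Aqp4 encodes the water channel of astrocyte endfeet. It was at 5.42 and 143 FPKM in P1 and P3 control, 3.81 and 46.8 FPKM in P1 and P3 Lin28a, and 11.6 and 7.12 RPKM in control and Lin28a polysomes. The Lin28a library was the lower of the pair at P1, at P3 and in polysomes, with log2 ratios of -0.42, -1.59 and -0.64. With passage the log2 ratio was 4.49 in control and 3.31 in Lin28a.

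Apoe and Agt encode secreted proteins: apolipoprotein E, the main lipid carrier of the brain, and angiotensinogen, the precursor of angiotensin. Apoe was at 56.0 and 3155 FPKM in P1 and P3 control, 47.6 and 1218 FPKM in P1 and P3 Lin28a, and 78.9 and 53.8 RPKM in control and Lin28a polysomes. In P3 control it was second only to Fabp7 in the set. Its log2 ratio was 5.79 with passage in control and 4.65 in Lin28a, and for Lin28a against control it was -0.23 at P1, -1.37 at P3 and -0.54 in polysomes. Agt was at 0.323 and 297 FPKM in P1 and P3 control, 0.159 and 99.3 FPKM in P1 and P3 Lin28a, and 2.30 and 1.13 RPKM in polysomes. Agt had the largest passage ratio of the 10 genes in both cultures, 7.82 in control and 6.43 in Lin28a, and the Lin28a library held 33.4% of the control level at P3 (log2 ratio -1.57; -0.63 in polysomes).

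Slc1a2 and Slc1a3 encode GLT-1 and GLAST, the transporters that clear glutamate from synapses. Slc1a2 was at 19.1 and 55.7 FPKM in P1 and P3 control, 17.0 and 36.4 FPKM in P1 and P3 Lin28a, and 10.7 and 9.21 RPKM in polysomes. Slc1a3 was at 137 and 354 FPKM in P1 and P3 control, 106 and 237 FPKM in P1 and P3 Lin28a, and 73.1 and 60.6 RPKM in polysomes. The pair had like ratios from different levels: with passage 1.50 for Slc1a2 and 1.36 for Slc1a3 in control and 1.06 and 1.16 in Lin28a, and for Lin28a against control -0.60 and -0.58 at P3 and -0.19 and -0.27 in polysomes. At P1 those ratios were -0.16 for Slc1a2 and -0.37 for Slc1a3.

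Glul encodes glutamine synthetase, which turns the glutamate taken up into glutamine. It was at 168 and 325 FPKM in P1 and P3 control, 169 and 232 FPKM in P1 and P3 Lin28a, and 76.8 and 79.2 RPKM in polysomes. The P1 pair and the polysome pair were nearly level, so the 2 P3 RNA libraries were the ones set apart. Its log2 ratio was 0.94 with passage in control, short of 2-fold, and 0.46 in Lin28a. For Lin28a against control it was 0.00 at P1, -0.48 at P3 and 0.04 in polysomes; the P1 and polysome values turned to -0.01 and -0.02 when each library was scaled to its upper quartile, the polysome value to -0.02 also when ratios were centred.

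Gja1 encodes connexin 43, the gap junction protein that couples astrocytes and radial glia. It was at 31.7 and 121 FPKM in P1 and P3 control, 34.5 and 83.6 FPKM in P1 and P3 Lin28a, and 10.4 and 9.04 RPKM in polysomes. Lin28a was the higher library at P1 and the lower at P3. The log2 ratio was 1.89 with passage in control and 1.25 in Lin28a, and for Lin28a against control 0.12 at P1, -0.52 at P3 and -0.18 in polysomes.

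Fabp7 encodes brain lipid-binding protein, a fatty acid carrier of radial glia and young astrocytes. It was at 1521 and 3418 FPKM in P1 and P3 control, 1313 and 1753 FPKM in P1 and P3 Lin28a, and 936 and 1067 RPKM in control and Lin28a polysomes. It was the highest of the 10 genes in all 6 libraries. Its log2 ratio was 1.17 with passage in control and 0.42 in Lin28a. For Lin28a against control it was -0.21 at P1, -0.96 at P3 and 0.19 in polysomes, where the Lin28a library was the higher one.

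**Figure D1:**
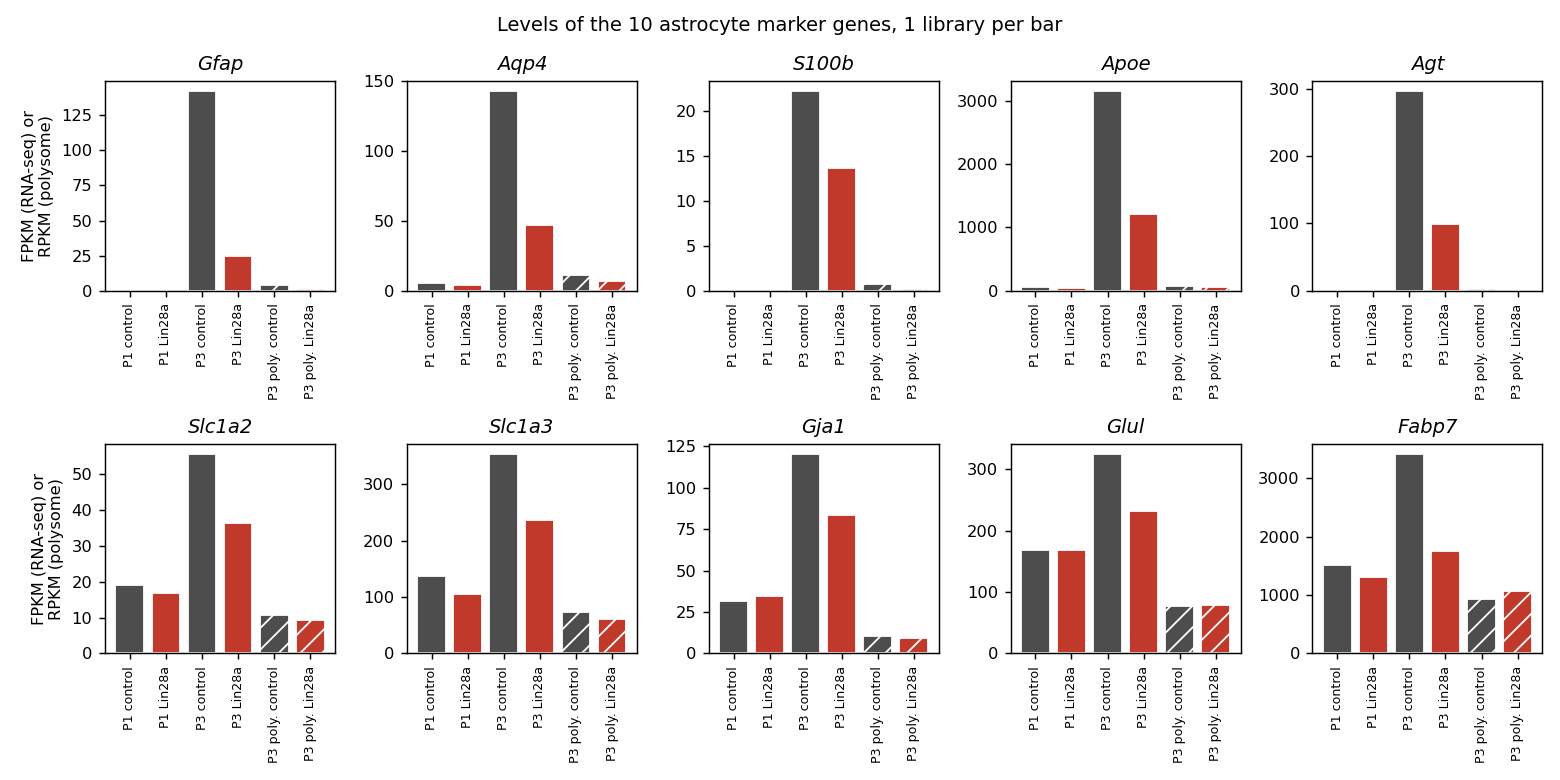
Level of each astrocyte marker gene (y axis, FPKM for RNA-seq and RPKM for polysome-seq, each panel with its own scale from 0) in the 6 libraries, 1 library per bar, with control in grey, Lin28a in red and polysome-seq hatched. P3 control is the tallest bar for all 10 genes, from 22.2 FPKM for S100b to 3418 FPKM for Fabp7.

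Between P1 and P3 in control, all 10 genes were higher at P3 and 9 were past 2-fold, against 11.5% of 13011 genes higher past 2-fold and 8.14% lower. The median log2 ratio was 3.18, beside 0.00 over all genes, of which 49.7% were higher at P3. In the Lin28a culture all 10 were again higher at P3, 8 of them past 2-fold, against 8.38% of 12850 genes higher and 4.8% lower past 2-fold. The median was 2.28, beside -0.01 over all genes, of which 49.0% were higher at P3. Glul stayed within 2-fold in both cultures and Fabp7 in Lin28a alone, and both were high at P1 already. These were bulk cultures, so fewer cells of a type and less RNA per cell cannot be told apart. Scaling each library to its upper quartile moved the median of all genes in the control passage comparison to -0.10 and left the 2 counts at 9 and 8.

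The order of the levels changed between the passages. In P1 control it ran Fabp7, Glul, Slc1a3, Apoe, Gja1, Slc1a2, Aqp4, Gfap, Agt and S100b, and P1 Lin28a had the same order. In P3 control it ran Fabp7, Apoe, Slc1a3, Glul, Agt, Aqp4, Gfap, Gja1, Slc1a2 and S100b. In P3 Lin28a, Gfap stood behind Gja1 and Slc1a2 as well, and Gja1 was ahead of Aqp4. With 1 library per group, no spread was available to tell neighbours such as Aqp4 and Gfap in P3 control (143 and 142 FPKM) apart.

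The passage ratio was smaller in Lin28a than in control for 10 of 10 genes, with a median difference of -0.75. Gfap differed by -2.00, Agt by -1.38, Aqp4 by -1.17, Apoe by -1.14, Fabp7 by -0.75, S100b by -0.75, Gja1 by -0.64, Glul by -0.48, Slc1a2 by -0.44 and Slc1a3 by -0.21. Over the 12723 genes in both passage comparisons the median difference was 0.00 and 50.2% were smaller in Lin28a. Among the 1452 genes past 2-fold higher at P3 in control, 82.0% were smaller in Lin28a, with a median of -0.32. Those genes were chosen on the control ratio that is then subtracted, which by itself favours a smaller ratio in Lin28a, and nothing is read from that share. For genes near 0 at P1 the pseudocount bears on these values. As plain ratios of FPKM, P3 stood 192-fold over P1 in control and 92.8-fold in Lin28a for Gfap, 920-fold and 622-fold for Agt, and 428-fold and 121-fold for S100b. The smaller ratio of Lin28a was seen in 10 of 10 genes with a pseudocount of 0.1 or 5 too.

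**Figure D2:**
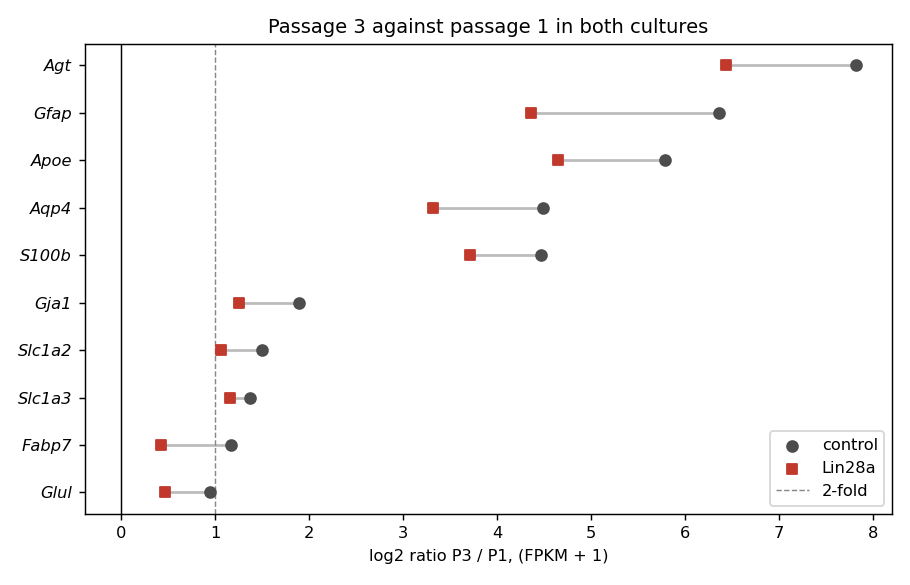
Log2 ratio of P3 to P1 (x axis, on FPKM + 1) for each gene in control (grey circles) and Lin28a (red squares), with the 2-fold line dashed. The red square lies to the left of the grey circle for all 10 genes, with the widest gap at Gfap (4.36 and 6.36) and the narrowest at Slc1a3 (1.16 and 1.36).

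At P1, 7 of the 10 genes reached 1 FPKM and could be compared between viruses, and none was past 2-fold, as was the case for nearly all genes (0.135% of 12564 higher and 0.0955% lower). The median was -0.21, beside -0.01 over all genes, and the range ran from -0.42 for Aqp4 to 0.12 for Gja1. The remaining 3, Gfap, S100b and Agt, were under 1 FPKM in both P1 libraries.

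At P3, all 10 genes were lower in Lin28a than in control RNA, as were 51.5% of all genes compared. Gfap, Aqp4, Agt and Apoe were past 2-fold, 4 of 10, against 1.34% of 12716 genes lower and 1.31% higher past 2-fold. The median was -0.82, beside -0.01 over all genes. Fabp7, at 51.3% of control, lay just inside 2-fold, and S100b, Slc1a2, Slc1a3, Gja1 and Glul held between 61.2% and 71.5% of the control level. The 4 genes past 2-fold all had passage ratios above 4 in control, as did S100b, which was within 2-fold here. This comparison and the control passage comparison share the P3 control library, so the 2 sets of values are given side by side only.

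In polysome RNA at P3, which shares no library with the RNA-seq comparisons, 7 of the 9 genes compared were lower in Lin28a, or 8 with ratios centred or scaled to the upper quartile, when Glul changed sides. With neither centring nor scaling, 37.2% of all genes compared were lower and 62.8% higher. Gfap alone was past 2-fold, against 0.122% of 12289 genes lower and 0.952% higher. The median was -0.27, beside 0.06 over all genes. S100b was under 1 RPKM in both polysome libraries and was not compared. Gfap rests on 4.06 and 1.47 RPKM, and its ratio of -1.03 was -0.49 with a pseudocount of 5, which ended the count of 1.

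**Figure D3:**
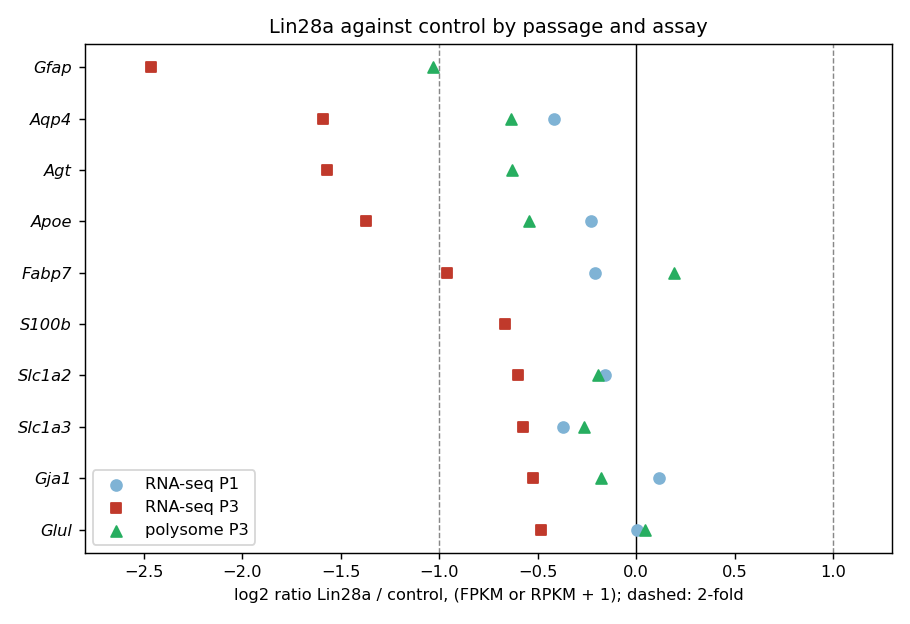
Log2 ratio of Lin28a to control (x axis, on level + 1) for each gene in P1 RNA-seq (blue circles), P3 RNA-seq (red squares) and P3 polysome-seq (green triangles), with 2-fold dashed and genes under 1 in both libraries left out. The red squares run from -2.46 at Gfap to -0.48 at Glul, and for every gene drawn with more than 1 symbol the red square is the leftmost.

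Polysome levels of these genes were low beside their RNA levels. In control the polysome level in RPKM was 27.4% of the P3 RNA level in FPKM for Fabp7, 23.6% for Glul, 20.7% for Slc1a3, 19.1% for Slc1a2, 8.61% for Gja1, 8.12% for Aqp4, 3.57% for S100b, 2.85% for Gfap, 2.50% for Apoe and 0.774% for Agt. The median over 8017 genes at 5 or more in both control P3 libraries was 67.5%, and over the 843 of them that were past 2-fold higher at P3 it was 35.5%. In Lin28a the values ran from 1.14% for Agt to 60.9% for Fabp7, beside medians of 71.9% over 8311 genes and 37.9% over 587 genes past 2-fold higher at P3. Gfap, Agt and S100b, under 5 RPKM in both polysome libraries, were not among the genes behind these medians. All 10 polysome levels were below the P3 RNA level of their culture, and 5 were also below the P1 RNA level, in control and in Lin28a alike. With medians of 67.5% and 71.9%, most genes behind the medians were below their P3 RNA level too. The shares of all genes below these levels were not counted, so nothing is read from the 2 counts. The 2 assays were counted in different ways and which gradient fractions were sequenced is not stated in the labels, so these percentages place genes beside each other and are no translation rates.

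**Figure D4:**
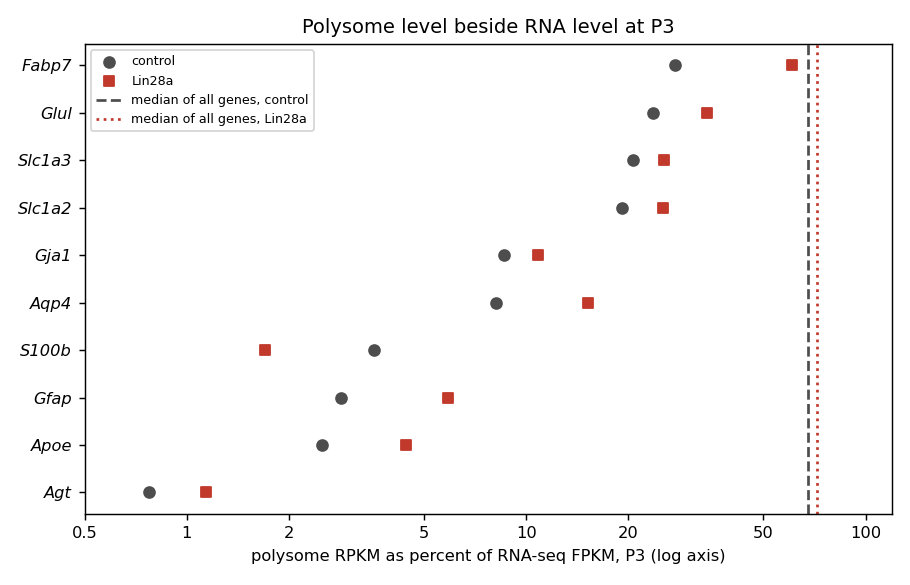
Polysome level as a percent of the RNA level at P3 (x axis, log scale, RPKM over FPKM) for each gene in control (grey circles) and Lin28a (red squares). Vertical lines, labelled as all genes, are the medians over genes at 5 or more in both P3 libraries of a culture. Gfap, Agt and S100b were under 5 RPKM in polysomes and so outside the genes behind those lines. All 20 points lie left of the medians of 67.5% and 71.9%, and the red square lies to the right of the grey circle for every gene but S100b, which was at 0.793 and 0.231 RPKM.

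The change of the polysome to RNA ratio, taken as the polysome log2 ratio of Lin28a to control minus the RNA one, could be computed for 7 genes at 5 or more in all 4 P3 libraries. It was above 0 for all 7, against 60.7% of all genes compared. The values were Fabp7 1.15, Aqp4 0.95, Apoe 0.83, Glul 0.53, Slc1a2 0.41, Gja1 0.34 and Slc1a3 0.31. Their median was 0.53, beside 0.07 over 7817 genes. The P3 RNA ratio that is subtracted was below 0 for all 7, which by itself favours a value above 0, and nothing is read from that count. Fabp7 alone was past 2-fold, against 0.358% of genes higher and 0.0512% lower. With ratios centred those shares became 0.256% and 0.166%, and with upper-quartile scaling 0.223% each way, while Fabp7 stood at 1.08 and 1.03. For these genes the RNA ratio was the more negative of the pair, and whether both assays drew on like cells is not stated in the labels.

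Other astrocyte genes lay on the same sides as the 10 in RNA with passage and for Lin28a at P3, and at P1 both medians were below 0. Of 29 compared, 26 were past 2-fold higher at P3 in control and none lower, with a median of 2.40. Among them were Pla2g7, a lipid-cleaving enzyme (4.98), the adhesion protein gene Hepacam (4.18) and the receptor gene Gpr37l1 (3.52). Against control, Lin28a was lower at P3 for 29 of 29, with 10 past 2-fold and a median of -0.78. At P1 Lin28a was lower for 25 of 25, with none past 2-fold and a median of -0.44. Of the 7 markers compared at P1, 5 were lower and 2 higher, Gja1 at 0.12 and Glul at 0.00, with a median of -0.21. With upper-quartile scaling 6 of the 7 were lower. Of all genes compared at P1, 51.6% were lower. In polysomes 20 of 23 were lower, none past 2-fold, with a median of -0.42. The change of the polysome to RNA ratio was above 0 for 14 of 18 and below 0 for 4, against 60.7% of all genes above 0.

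Genes that astrocytes raise on injury were mixed: of 19 compared, 8 were past 2-fold higher and 3 lower at P3 in control, with a median of 0.95. Cd109, a surface protein gene, was at 3.54, the protease inhibitor gene Timp1 at 3.08, the interferon-induced GTPase gene Gbp2 at 2.53 and the proteasome subunit gene Psmb8 at 1.90. The 3 lower ones, named after their values were seen, were Serping1 at -1.36, Ptx3 at -1.13 and B3gnt5 at -1.10. In Lin28a against control at P3, 4 were past 2-fold lower, Timp1 at -1.54 among them, and 1 higher, B3gnt5 at 1.02. The median was -0.18.

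Of 15 radial glia and progenitor genes, 0 were past 2-fold with Lin28a at P3, and the median was 0.02. At the shares over all genes, 1.31% higher and 1.34% lower, a count of 0 among 15 does not set the list apart. With passage in control 5 were past 2-fold higher and 2 lower, with a median of 0.57, from the endothelin receptor gene Ednrb at 3.04 to the surface protein gene Prom1 at -2.31, with the Notch target Hes5 at 1.89 and the transcription factor Sox3 at 1.88. All 7 markers listed for neural stem cells were at 1 or more in all 6 libraries. Of the 17919 genes, between 12028 and 12461 were at 1 or more in each library.

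Among genes of the signals that direct progenitors to the astrocyte fate (cytokines and JAK-STAT, BMP, NFI and Notch), 7 of 32 were past 2-fold higher and 4 lower at P3 in control, with a median of 0.29. Stat3, the transcription factor that cytokines activate, was at 1.55, the ligand gene Bmp4 at 2.32 and the receptor gene Bmpr1b at 2.12. The proneural factor Neurog2 was at -5.06, from 57.5 to 0.750 FPKM. With Lin28a at P3, Neurog2 was the 1 gene of 30 past 2-fold (2.52, at 9.03 FPKM), none was lower past 2-fold, and the median was -0.06. Stat3 was at -0.06, with 80.7 and 77.1 FPKM in control and Lin28a.

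Relatives of the marker genes did not all follow them. The S100 genes did, with 6 of 6 past 2-fold higher at P3 in control (median 3.53; S100a1 4.16, S100a16 3.68, S100a4 3.54, S100a13 3.52) and 6 of 6 lower in Lin28a at P3, 1 past 2-fold (S100a4, -1.26). Other intermediate filament genes were mixed with passage in control. Of 7 compared, 4 were past 2-fold lower: Ina, of neurons, at -3.32, Nefl at -2.31, Nefm at -1.67 and the progenitor filament gene Nes at -1.17. The other 3 were higher, Synm at 1.02 (within 2-fold with upper-quartile scaling), Prph at 0.86 and Vim, the most abundant of the list, at 0.64; these 3 were named after their values were seen. Among apolipoprotein and lipid efflux genes 3 of 8 were past 2-fold higher with passage in control, Apoc1 at 3.40, Clu at 2.72 and the cholesterol exporter gene Abca1 at 1.19, and Apod was at -2.00. Clu was at -1.17 with Lin28a at P3.

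Of the other glutamate transporters, Slc1a1 was at 2.58 with passage in control and Slc1a4 at 1.05, or 0.94 with upper-quartile scaling, which ended its place past 2-fold, and Slc1a5 was at -0.61. Among genes of glutamine and glutamate turnover, Glud1 was at 2.41 and the glutamine transporter gene Slc38a3 at 1.75. Connexin relatives went both ways, Gjc3 of oligodendrocyte-lineage cells at 2.75 and Gjd2 of neurons at -3.02. Fabp5 was at 1.89 and Fabp3 at -0.27, and the aquaporin gene Aqp11 was at 0.81. Beside Agt, the renin-angiotensin genes were sparse, with Atp6ap2 at 46.3 and 49.8 FPKM and Ace at 0.657 and 1.40 FPKM in P1 and P3 control, and the other 5 in the table under 1 in all 6 libraries.

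**Figure D5:**
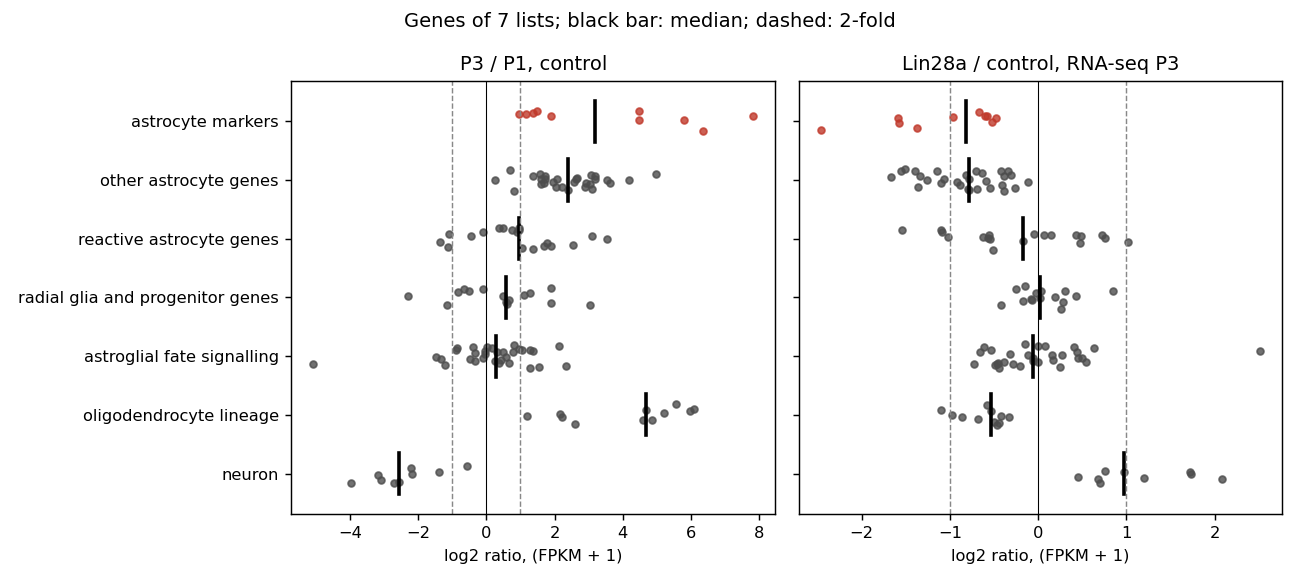
Log2 ratio (x axis, on FPKM + 1) of each gene in 7 lists (rows; 1 point per gene, bar at the median), for P3 against P1 in control on the left and for Lin28a against control at P3 on the right, with 2-fold dashed. The medians of the astrocyte markers (3.18 and -0.82) and of the other astrocyte genes (2.40 and -0.78) lie on opposite sides from those of the neuron genes (-2.55 and 0.98).

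Markers of other cells in the dish changed along with these genes. Oligodendrocyte-lineage markers were past 2-fold higher at P3 in control for 11 of 11 compared (median 4.67; Gpr17 6.09, Bcas1 5.54, Sox10 5.22), and their summed level was 186 and 1727 FPKM in P1 and P3 control and 110 and 1030 FPKM in P1 and P3 Lin28a. Neuron markers summed to 904 and 200 FPKM in control and 790 and 396 FPKM in Lin28a, with 8 of 9 past 2-fold lower with passage in control (Tubb3 -3.96) and 4 of 9 past 2-fold higher with Lin28a at P3 (Tubb3 2.08). The 10 astrocyte markers summed to 1939 and 8032 FPKM in control and 1691 and 3746 FPKM in Lin28a, and without Fabp7 to 419 and 4614 FPKM and to 378 and 1993 FPKM. In polysomes the sums in control and Lin28a were 1204 and 1289 RPKM for the astrocyte markers, most of it Fabp7 and 269 and 222 RPKM without it, 296 and 200 RPKM for the oligodendrocyte lineage and 121 and 185 RPKM for neurons. Pericyte and mesenchyme markers summed to 141 and 458 FPKM in control and 126 and 296 FPKM in Lin28a, with 4 of 9 past 2-fold higher with passage in control and 4 lower (Acta2 2.48, Lum -2.79). Cspg4, among the higher ones at 2.21, is in the oligodendrocyte-lineage list too and is counted in both. How far the mix of cell types enters the values of the astrocyte markers was not tested. The 15 markers of microglia, which can make Apoe, summed to 2.52 FPKM in P3 control and 2.49 FPKM in P3 Lin28a, and Cd68 and Lyz2 were the ones that reached 1 FPKM in any library. Of 5 markers of liver, which makes Agt and Apoe in the body, none was at 1 in any library. Which cells the Agt and Apoe RNA came from was not tested.

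The genes most like each marker in pattern were sought among 12086 genes, with the markers themselves left out of the ranking. Likeness was the root mean square difference of log2(level + 1) over the 6 libraries, centred within each assay, where 0 is the same pattern. This is a description, and all genes share the same 6 libraries and their depths. Outside the markers, Gfap was nearest to Plekhb1 (0.44), Bcas1 (0.49) and Mt2 (0.57), but the marker Apoe was closer to it (0.36). Aqp4 was nearest to the metallothionein genes Mt1 (0.17) and Mt2 (0.17) and to S100a1 (0.22), and Apoe to Bcas1 (0.30), Plekhb1 (0.31) and Pla2g7 (0.32). Agt was nearest to the myelin gene Mbp (0.41), and Bcas1 was also among its nearest genes (0.70). Genes with smaller ratios had closer neighbours: Josd2 for Slc1a2 (0.02), Cebpb for Slc1a3 (0.03), Mif4gd for Gja1 (0.02), Cox6a1 for Glul (0.02) and Lactb for Fabp7 (0.03). Between the markers themselves the closest pair was Slc1a2 and Slc1a3 (0.07), followed by Slc1a2 and Gja1 (0.15) and by Glul and Fabp7 (0.16), and the farthest was Agt and Glul (2.65). S100b was left out, being under 1 RPKM in both polysome libraries.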

How the data were processed

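RNA-seq values were deposited by the authors as 1 FPKM value per RefSeq gene and library, and polysome values as 1 value per gene read here as RPKM. The file headers name no unit, and both units were taken from the named tools and the values. Bowtie 1.0.0, TopHat2 2.0.6, Cufflinks 2.1.1 and build mm9 are named per the submitters' processing notes, without roles. Genes with no estimate sit at 4.8e-07 in RNA-seq and at 0.00204 (control) and 0.00331 (Lin28a) in polysome-seq. All 10 RefSeq identifiers matched their symbols in the GRCm38.p6 gene table, as did 16656 of the 17919 symbols. No columns of other samples were found (0).

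Log2 ratios with a pseudocount of 1 were computed in Python 3.11.15 with numpy 2.4.6 and pandas 2.3.3, and plotted with matplotlib 3.10.9. The polysome to RNA change used genes at 5 or more in 4 libraries. The ratio and pattern code was checked on simulated data. Relative depth is the most common ratio of low values (0.005 to 0.2) between libraries. Named genes are the 10 markers and up to 4 genes per list with the largest passage ratio in control. The 3 nearest patterns per marker, from genes outside the 10, are named too. The markers and lists were chosen with earlier results of these data known, so their counts support nothing independently. Alternatives were pseudocounts of 0.1 and 5, centred ratios, upper-quartile scaling and other filters. Genes listed but not in the table (4) were not analysed here. Small RNA libraries were not used. Some genes that the naming rule picks are not reported here.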

Additional observations from a re-analysis of the deposited data

Results flagged for a closer look

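In 3 of the 10 genes the Lin28a library was on opposite sides of its control in 2 comparisons. None of these differences was tested, since each comparison has 1 library per group. The share of all genes that change sides in this way was not counted, so nothing is read from the count of 3.

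Gja1 had a log2 ratio of Lin28a to control of 0.12 at P1 and -0.52 at P3, a difference of -0.639. Glul was at 0.00 at P1 and -0.48 at P3, a difference of -0.485, and its P1 value is too near 0 to carry a direction. At P3, Glul was at -0.48 in RNA and 0.04 in polysomes, a difference of 0.527. That polysome value was -0.02 with ratios centred or with upper-quartile scaling, so the change of sides depends on the scaling. Fabp7 was at -0.96 in P3 RNA and 0.19 in polysomes, a difference of 1.152, the widest of the 4. The comparisons at P3 RNA and in polysomes share no library.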

How the results depend on the processing

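The counts recomputed were those of genes past 2-fold and that of genes with a smaller passage ratio in Lin28a. Of these, 69 recomputed values stayed within 1.5 times the reported count and 4, all counts past 2-fold, did not. The count lower in Lin28a polysomes went from 1 to 0 with a pseudocount of 5, and to 0 among genes at 5 or more in at least 1 library, a filter that removes Gfap. The count with a higher polysome to RNA ratio went from 1 to 2 with a pseudocount of 5, which brought in Aqp4 at 1.06, and to 2 among genes at 1 or more in all 4 libraries, a filter that lets Gfap in. Of the single-gene ratios, 295 stayed within 0.58 of the reported value and 14 did not, all of them passage ratios of Gfap, S100b, Agt and Aqp4 under another pseudocount. In control the ratio of Agt was 9.46 with 0.1 and 5.83 with 5, and that of S100b 7.20 and 2.43. No ratio past 2-fold changed sign. Upper-quartile scaling took the passage counts in control from 8 to 7 higher for reactive astrocyte genes, from 5 to 4 for radial glia genes and from 7 to 6 for fate signalling genes. The alternatives for the difference between the 2 passage ratios were chosen after the data were seen. Depth limits the genes under 1 FPKM at P1, whose passage ratios depend on the pseudocount. No replicate could be left out, and no paired analysis was possible because each group has 1 library.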
